A study of Mus musculus with 14 samples.

Results

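The BCL2 family genes described here are Bcl2, Bcl2l1, Mcl1, Bax, Bak1, Bmf, Bid, Bcl2l11, Bbc3 and Bad, chosen by name as pro- and anti-death members of the family. They are 10 of 30436 features, made by summing 13 of 35230 RefSeq transcript rows per mouse gene symbol, and all 10 passed the filter on low counts that left 12300 features for testing. RNA sequencing was done on 14 liver samples of male C3HeB/FeJ mice aged 18 months, an inbred strain in which liver tumours arise spontaneously with age, and no genotype other than the strain is given. Of 6 tumours marked Grow, Grow 1 and Grow 5 came from mice injected with the solvent DMSO, and Grow 2, 3 and 4 from mice given SAHA at 85 mg/kg with TMZ at 22 mg/kg. Grow 6 received SAHA alone at 100 mg/kg. Of 4 tumours marked Regress, Regress 1 and Regress 3 received TMZ alone at 31 mg/kg, Regress 2 received phosphate citrate buffer and Regress 4 received DMSO. The 4 normal livers (Normal 1 to 4) received the buffer. For every sample the schedule is given as 6 cycles of 28 days with 5 injection days each, and a tumour check at 10 months. SAHA (suberoylanilide hydroxamic acid) inhibits histone deacetylases, and TMZ (temozolomide) alkylates DNA. How growth and regression were scored is not defined in the labels.

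Proteins of the BCL2 family decide whether the outer membrane of the mitochondrion is opened, which releases cytochrome c and starts the caspases of programmed cell death. Anti-death members (BCL2, BCL-XL from Bcl2l1, and MCL1) hold the pore-forming effectors BAX and BAK (from Bax and Bak1) in check, and BH3-only proteins (BMF, BID, BIM from Bcl2l11, PUMA from Bbc3, and BAD) relieve that check or activate the effectors. In mouse liver, MCL1 and BCL-XL are both needed for hepatocytes to survive, and BID carries the death signal of the receptor FAS to the mitochondria.

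Library totals ran from 4.71 to 13.39 M (mega) estimated counts. Summed hepatocyte markers (8 of 9 listed genes had a row, all 8 tested) stood at 41500 to 239000 CPM (counts scaled to a common library size) in Grow, 82900 to 177000 CPM in Regress and 60800 to 90600 CPM in Normal. Normal 4 and Regress 2 carry the same code in the labels. Grow 3 and Grow 4 resembled each other most of all pairs within a group (r = 0.979 across genes) but differed by more than counting noise (chi-square 19.9 per degree of freedom). That does not show that they came from separate tumours; each was counted as the labels give it, and their sum was tried as an alternative. Nothing in the labels says that the samples came from separate animals, so each p-value reflects how these 14 samples varied and no more.

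Bmf, a BH3-only gene whose protein is held on the motor complexes of the cytoskeleton until it is released, was the member that differed most. In Grow tumours the lowest, median and highest levels were 0.757, 1.79 and 4.80 CPM. The Regress tumours 1 to 4 had 4.53, 4.15, 2.32 and 4.23 CPM, and the normal livers 1 to 4 had 23.2, 7.88, 23.9 and 23.3 CPM. Every tumour lay below every normal liver, and the lowest normal library, Normal 2, lay apart from the other normal livers. Over both tumour groups Bmf was 6.78-fold lower than in normal liver (log2 fold change -2.76 ± 0.41 SE, adjusted p = 0.0120, edgeR's quasi-likelihood test with Benjamini-Hochberg adjustment over 12300 features). It was 1 of 10 members called at an adjusted p under 0.05, against 2.32% of all tested features (1.59% called higher and 0.732% lower). It was also the single member whose tumour and normal values did not overlap, lying lower, as did 0.935% of features (1.09% lay wholly higher). In Grow against Normal it fell by 3.18 on the log2 scale (SE 0.48, adjusted p = 0.0129) and was again 1 of 10 members called, where 1.76% of features were (1.12% higher and 0.642% lower). In Regress against Normal the log2 fold change was -2.35 ± 0.54 with an adjusted p of 0.0638, and 0 of 10 members were called. In that comparison edgeR called 0.0244% of features, while 1988 features and 3 members had an unadjusted p under 0.05 and DESeq2 called 1 member, Bmf, and 5.79% of features.

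The Bmf difference rested on 6 to 40 estimated counts in a tumour library and 45 to 160 in a normal one. The call over both tumour groups was lost without Normal 1 (log2 fold change -2.67, adjusted p = 0.0590), without Normal 3 (-2.65, adjusted p = 0.0580) and without both libraries that share a code (-2.69, adjusted p = 0.0793). In Grow alone it was lost without Normal 1 (adjusted p = 0.0675), Normal 4 (0.0520) or both libraries that share a code (0.0584), and without Regress 1 Bmf passed in Regress (-2.44, adjusted p = 0.0386). With 1 library left out in turn, the adjusted p of Bmf in Regress ran from 0.0386 to 0.205. The count over all features moved with single libraries too: the 285 called over both tumour groups became 0 to 58 without any 1 normal liver and 991 without Regress 1. Summed markers of stellate cells and fibroblasts (8 of 8 genes tested, none at 0 in all libraries) stood at 63.8 to 124 CPM in Grow, 120 to 955 CPM in Regress and 173 to 344 CPM in Normal. Their part in the Bmf difference was not tested. In whole tissue, fewer cells of a type and less RNA per cell cannot be told apart.

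**Figure D1:**
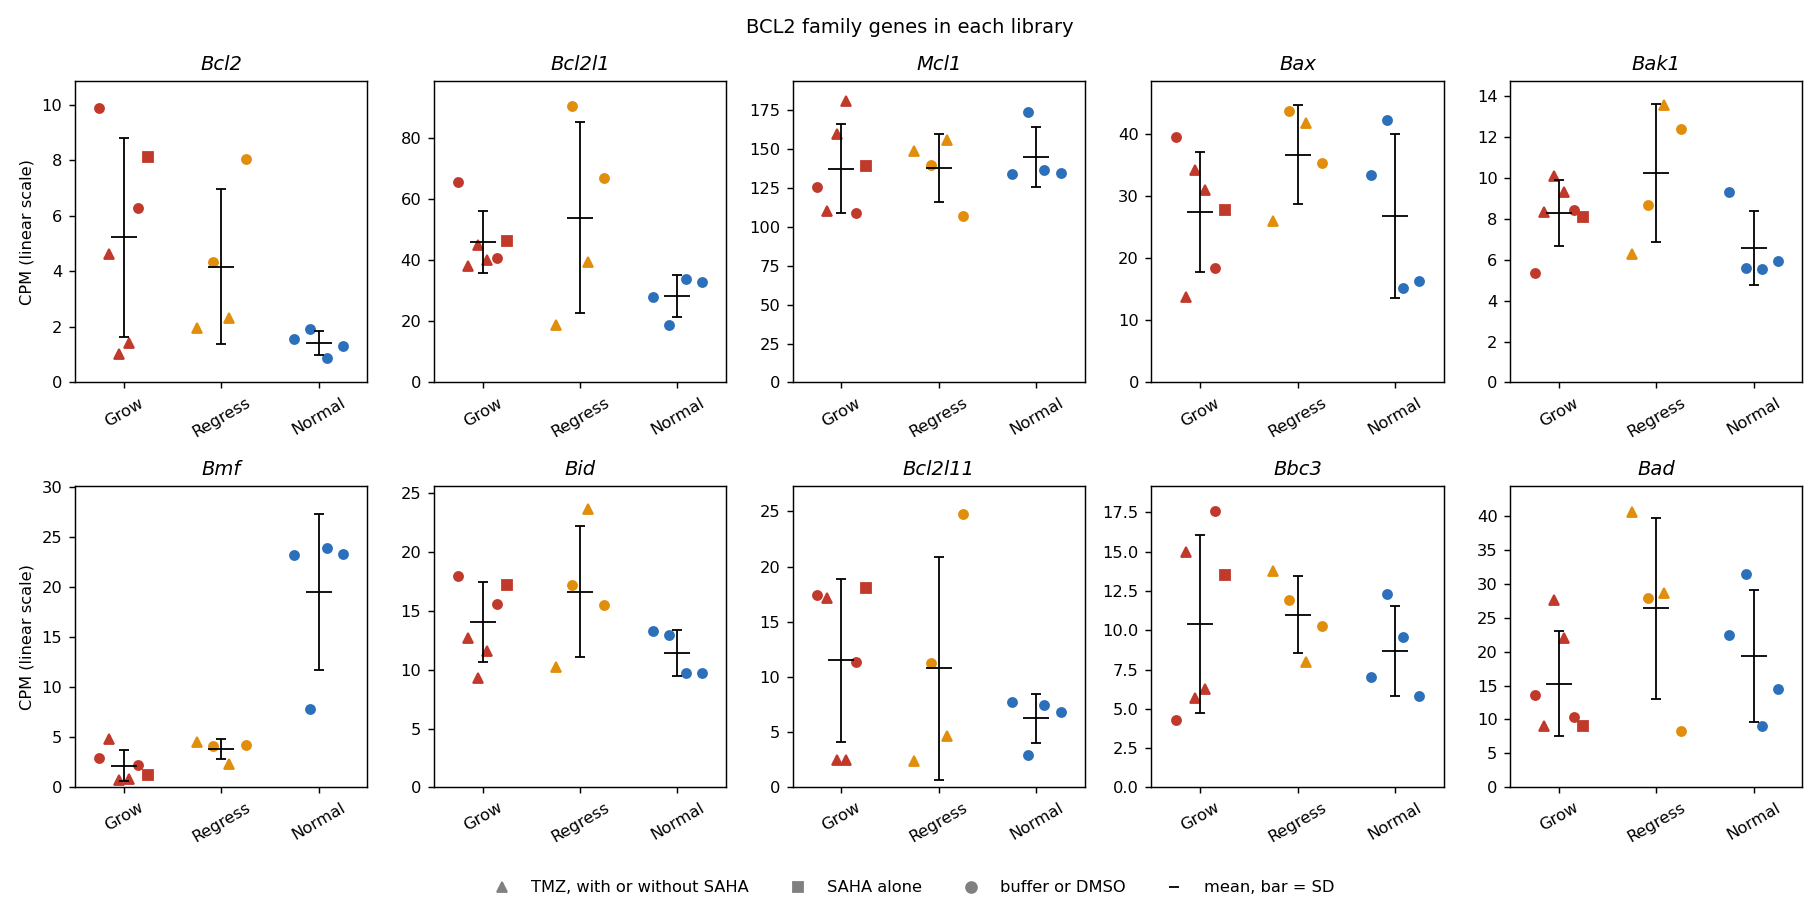
CPM of each of the 10 genes in every library, on linear axes that start at 0. Points are libraries of Grow (n = 6), Regress (n = 4) and Normal (n = 4), shaped by treatment, with the mean and SD; Bmf lies below 5 CPM in all tumours and at 7.88 to 23.9 CPM in normal livers, while Mcl1, Bax and Bad overlap between groups.

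The 250 bases before the start of Bmf, Bcl2 and Bcl2l1 are shown because these are the members that passed the test in at least 1 comparison with normal liver. The sequences are those of RefSeq for GRCm38.p6, a later build than the mm9 named in the submitters' processing notes, and run 5′ to 3′ toward the start. Capitals mark the GC box, the letters GGGCGG or CCGCCC on either strand.
Bmf (chr2:118549687-118549936, minus strand): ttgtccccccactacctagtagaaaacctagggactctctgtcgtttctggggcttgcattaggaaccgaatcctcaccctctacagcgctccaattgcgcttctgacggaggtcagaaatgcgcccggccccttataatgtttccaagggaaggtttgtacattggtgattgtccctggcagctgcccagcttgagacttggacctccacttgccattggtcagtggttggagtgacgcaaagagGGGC
Bcl2 (chr1:106714291-106714540, minus strand): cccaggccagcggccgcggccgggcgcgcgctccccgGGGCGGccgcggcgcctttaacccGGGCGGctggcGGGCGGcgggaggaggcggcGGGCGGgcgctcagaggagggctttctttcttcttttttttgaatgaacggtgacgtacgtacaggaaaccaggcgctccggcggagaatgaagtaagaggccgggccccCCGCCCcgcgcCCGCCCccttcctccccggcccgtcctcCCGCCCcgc
Bcl2l1 (chr2:152831729-152831978, minus strand): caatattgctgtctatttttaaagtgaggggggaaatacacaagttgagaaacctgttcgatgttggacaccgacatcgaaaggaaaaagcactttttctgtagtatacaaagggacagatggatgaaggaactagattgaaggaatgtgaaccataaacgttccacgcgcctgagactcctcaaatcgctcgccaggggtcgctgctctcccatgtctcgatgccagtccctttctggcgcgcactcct
Bcl2 held 7 GC boxes in the window from 250 bases before to 50 after the start, none overlapping another. Bmf held 1, which crosses the start, so that its first 4 letters close the stretch shown, and Bcl2l1 held none. At least 1 GC box was found in 35.7% of 32851 promoter windows of the same length. None of the 3 windows held TGTTTAC or GTAAACA, the letters of a FOXO site (3.65% of windows), TGANTCA of an AP-1 site (7.81%) or the E-box CACGTG (7.15%). The promoter table lists 3 starts each for Bmf and Bcl2l1 and 1 for Bcl2, and the start shown is that of the measured transcript.

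Among the anti-death genes, Bcl2 and Bcl2l1 had higher means in tumours and Mcl1 did not. Bcl2 stood at 1.01, 5.46 and 9.89 CPM in Grow (lowest, median, highest), at 1.97, 4.35, 2.32 and 8.04 CPM in Regress 1 to 4, and at 1.58, 1.93, 0.897 and 1.31 CPM in Normal 1 to 4. All Regress tumours and 4 of 6 Grow tumours lay above every normal liver, and Grow 3 and Grow 4 lay among the normal values. Summed cholangiocyte markers (4 of 6 genes tested) stood at 114, 22.9, 15.9, 15.6, 62.2 and 44.3 CPM in Grow 1 to 6, at 27.8, 34.2, 147 and 117 CPM in Regress 1 to 4 and at 14.0 to 25.1 CPM in Normal. They too lay above every normal liver in all Regress tumours, and within the normal range in Grow 3 and Grow 4, as well as in Grow 2. Their part in the Bcl2 difference was not tested. Its log2 fold change was 1.87 ± 0.64 in Grow (adjusted p = 0.138) and 1.56 ± 0.68 in Regress (adjusted p = 0.271), so neither passed. DESeq2 called it in Grow (1.86, adjusted p = 0.0461) and over both tumour groups (1.72, adjusted p = 0.0465), comparisons in which DESeq2 called 8.24% and 8.58% of features. Normal livers held 6 to 11 estimated counts of Bcl2 a library, beside 10 in Regress 1 and 9 in Regress 3. Bcl2 exons share 558 bases with an antisense gene, D630008O14Rik, whose reads cannot be told apart without strand.

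Bcl2l1, which encodes BCL-XL, stood at 38.1, 42.9 and 65.4 CPM in Grow (lowest, median, highest), at 18.9, 90.3, 39.4 and 67.0 CPM in Regress 1 to 4, and at 28.1, 18.7, 33.8 and 32.9 CPM in Normal 1 to 4. Every tumour but Regress 1 lay above every normal liver. The log2 fold change was 0.69 ± 0.35 in Grow (adjusted p = 0.346) and 0.93 ± 0.38 in Regress (adjusted p = 0.239). Without Regress 1 it passed in Regress (1.21, adjusted p = 0.0381) and over both tumour groups (0.95, adjusted p = 0.0398), where 5.28% and 7.84% of features were called. With 1 library left out in turn, its adjusted p ran from 0.0381 to 0.604 in Regress and from 0.0398 to 0.379 over both tumour groups. In Grow, Bcl2l1 was the single member lying wholly above normal liver, as did 5.27% of features, and in Regress that was Bcl2, as did 2.72%. For Bcl2 this rested on 1.97 CPM in Regress 1 against 1.93 CPM in Normal 2, at 10 and 11 estimated counts. On the lower side Bmf stood alone in both tumour groups, beside 4.28% of features in Grow and 3.2% in Regress. Mcl1, a short-lived protein that must be made continuously, was at 109, 132 and 181 CPM in Grow, at 149, 140, 156 and 107 CPM in Regress 1 to 4, and at 134, 174, 137 and 135 CPM in Normal 1 to 4. These ranges overlapped, and the log2 fold change over both tumour groups was -0.08 ± 0.20 (adjusted p = 0.925).

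In the 4 tumours that had received only buffer or DMSO (Grow 1 and 5, Regress 2 and 4), Bcl2, Bcl2l1 and Bmf were called against the 4 normal livers. With no library left out, edgeR called Bcl2 and Bcl2l1 in this comparison alone, and their promoters are shown for that reason. Of these tumours only Regress 2 received the buffer given to the normal livers, so the tissue and the DMSO of the other 3 cannot be told apart. Bcl2 averaged 7.14 ± 2.37 CPM in these tumours and 1.43 ± 0.435 CPM in normal livers (SD, n = 4 each; log2 fold change 2.31 ± 0.40 SE, adjusted p = 0.0124). Bcl2l1 averaged 65.9 ± 20.3 CPM in the tumours and 28.4 ± 6.88 CPM in normal livers (1.19 ± 0.30, adjusted p = 0.0472). Bmf averaged 3.40 ± 0.953 CPM in the tumours and 19.6 ± 7.79 CPM in normal livers (-2.55 ± 0.40, adjusted p = 0.00818). In this fit of 8 libraries 3 of 10 members were called, 2 higher and 1 lower, against 7.50% of 12544 features (4.68% higher and 2.82% lower). Bcl2l11 (16.2 ± 6.40 CPM in the tumours and 6.25 ± 2.21 CPM in normal livers) and Bid (16.6 ± 1.22 and 11.4 ± 1.98 CPM in the same order) also lay wholly above normal liver, with adjusted p of 0.0755 and 0.254. That made 4 members without overlap on the higher side, where 9.04% of features lay, and 1, Bmf, on the lower side, where 6.41% lay. The call of Bmf was kept with each of the 8 libraries left out in turn (adjusted p from 0.00426 to 0.0407), that of Bcl2 was lost without Normal 4 (0.0503) or Grow 1 (0.0611), and that of Bcl2l1 was kept only without Regress 4 (0.0661 to 0.184 otherwise). Without both libraries that share a code, Bcl2 was the single member called (2.45, adjusted p = 0.0388), where 3.9% of features were, with Bmf at -2.47 (0.0553) and Bcl2l1 at 1.14 (0.144). Without Regress 2, Bcl2l11 was called as well (1.58, adjusted p = 0.0354), in a fit that called 10.7% of features. With each of the 8 libraries left out in turn, the adjusted p of Bcl2l11 ran from 0.0354 to 0.242.

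**Figure D2:**
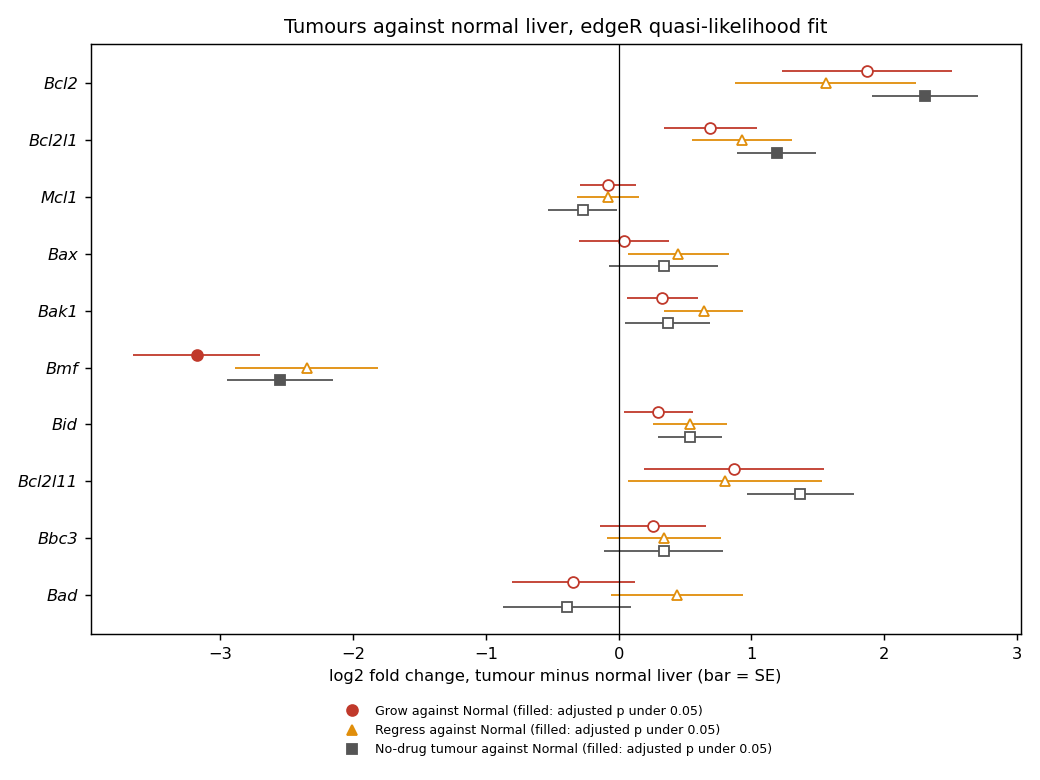
Log2 fold change, tumour minus normal liver, of the 10 genes from edgeR fits, for Grow, Regress and tumours given buffer or DMSO only (no-drug), each against Normal. Bars are standard errors and filled marks have an adjusted p under 0.05; Bmf is filled in Grow (-3.18) and no-drug tumours (-2.55), and Bcl2 (2.31) and Bcl2l1 (1.19) in no-drug tumours.

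Neither effector passed in a group comparison. Bax, whose protein moves from the cytosol into the mitochondrial membrane, stood at 13.8, 29.3 and 39.5 CPM in Grow (lowest, median, highest), at 26.0, 43.7, 41.7 and 35.3 CPM in Regress 1 to 4, and at 33.4, 42.2, 15.2 and 16.4 CPM in Normal 1 to 4. The normal livers fell into a higher and a lower pair, and tumours overlapped both. Bak1, whose protein sits in that membrane at rest, stood at 5.35, 8.40 and 10.1 CPM in Grow, at 6.30, 8.70, 13.6 and 12.4 CPM in Regress 1 to 4, and at 9.30, 5.61, 5.53 and 5.96 CPM in Normal 1 to 4. Normal 1 lay above the other normal livers, and 5 of 6 Grow and all Regress tumours lay above those other 3. The log2 fold changes over both tumour groups were 0.24 ± 0.32 for Bax (adjusted p = 0.805) and 0.48 ± 0.26 for Bak1 (adjusted p = 0.360). Bak1 shares 256 exon bases with Ggnbp1, and Bax 192 with Gm45808.

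The other BH3-only genes did not pass in Grow or Regress. Bid, cut by caspase-8 into its active form, stood at 9.34, 14.2 and 18.0 CPM in Grow, at 10.2, 17.2, 23.7 and 15.5 CPM in Regress 1 to 4, and at 13.3, 13.0, 9.71 and 9.75 CPM in Normal 1 to 4. Tumour values reached above the normal range and their low end overlapped it (0.42 ± 0.24, adjusted p = 0.411). Bcl2l11, whose product BIM binds all anti-death members, stood at 2.48, 14.3 and 18.1 CPM in Grow, at 2.36, 11.3, 4.64 and 24.8 CPM in Regress 1 to 4, and at 7.72, 2.98, 7.47 and 6.84 CPM in Normal 1 to 4. Tumours lay on both sides of the normal livers, with 4 of 10 below 5 CPM and 6 above 11 CPM (0.84 ± 0.64, adjusted p = 0.590). Its estimated counts come from 3 transcript rows whose split varied between libraries, so CPM and tests use their sum, and levels per kilobase depend on that split. Regress 4, the library highest in Bcl2l11, was also the one with 955 CPM of stellate cell and fibroblast markers. Grow 1, 2 and 6, at 17.4, 17.2 and 18.1 CPM of Bcl2l11, held 81.5, 124 and 115 CPM of these markers. Regress 1, the tumour lowest in Bcl2l11 at 2.36 CPM, held 334 CPM of them. The part of these markers in the Bcl2l11 values was not tested. Without Regress 4 the Bcl2l11 log2 fold change in Regress against Normal was -0.04 in place of 0.80.

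Bbc3, a p53 target that encodes PUMA, stood at 4.32, 9.86 and 17.6 CPM in Grow, at 13.8, 11.9, 7.98 and 10.3 CPM in Regress 1 to 4, and at 7.02, 12.3, 9.56 and 5.82 CPM in Normal 1 to 4. Bad, whose protein is held inactive by growth factor signalling through phosphorylation, stood at 8.98, 12.0 and 27.6 CPM in Grow, at 40.6, 27.9, 28.6 and 8.32 CPM in Regress 1 to 4, and at 22.5, 31.4, 9.11 and 14.5 CPM in Normal 1 to 4. The ranges of both genes overlapped in every group, with adjusted p of 0.787 for Bbc3 and 0.981 for Bad over both tumour groups. Bad shares 517 exon bases with Gpr137. Over the 10 members the median log2 fold change was 0.36 in all tumours (0.01 over all features), with 8 of 10 above 0.

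Set per kilobase of transcript, which allows a rough comparison of different genes, the make-up of the family can be described within each role. Dividing by length does not remove each library's own trend of expression on transcript length. The slope of log2 CPM per doubling of length ran from -0.478 in Regress 3 to 0.446 in Normal 3. Bax (867 bases) and Bad (1452) are short beside Bmf (4642), so the order, shares and sums given here can shift with the library. In normal liver the order of mean level was Mcl1 (42.5 ± 5.60 CPM per kilobase, SD, n = 4), Bax (30.9 ± 15.2), Bad (13.3 ± 6.66), Bcl2l1 (11.7 ± 2.86), Bid (5.23 ± 0.906), Bbc3 (4.78 ± 1.60), Bmf (4.22 ± 1.67), Bak1 (2.76 ± 0.765), Bcl2l11 (1.43 ± 0.158) and Bcl2 (0.198 ± 0.0666). Neighbours in this order from Mcl1 to Bcl2l1 and from Bid to Bak1 overlapped in range, whereas Bcl2l1 lay above Bid, Bak1 above Bcl2l11 and Bcl2l11 above Bcl2 in every normal liver. Bmf made up 1.79% ± 1.35 of the summed BH3-only level in Grow (SD, n = 6), 2.40% ± 0.901 in Regress (n = 4) and 16.0% ± 8.15 in Normal (n = 4). All tumours held at most 4.07%, and Normal 2, the lowest normal liver, held 4.61%. Mcl1 was the largest anti-death share, at 66.8% ± 6.58 in Grow, 65.2% ± 16.1 in Regress and 77.9% ± 5.82 in Normal. Bcl2l1 made up 31.9% ± 5.89, 33.7% ± 15.7 and 21.8% ± 5.93 in the same order, and Bcl2 1.35% ± 0.806, 1.04% ± 0.661 and 0.363% ± 0.112. The shares of Mcl1 and Bcl2l1 overlapped between tumours and normal livers. Summed over the 5 BH3-only genes, the level was 25.7 ± 1.09 CPM per kilobase in Grow, 35.5 ± 7.12 in Regress and 29.0 ± 6.81 in Normal, which overlapped as well. The sums of anti-death genes (60.0 ± 8.93, 63.3 ± 11.3 and 54.4 ± 3.26 CPM per kilobase) and of effectors (35.1 ± 11.0, 46.6 ± 10.0 and 33.7 ± 15.4) also overlapped between the 3 groups.

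**Figure D3:**
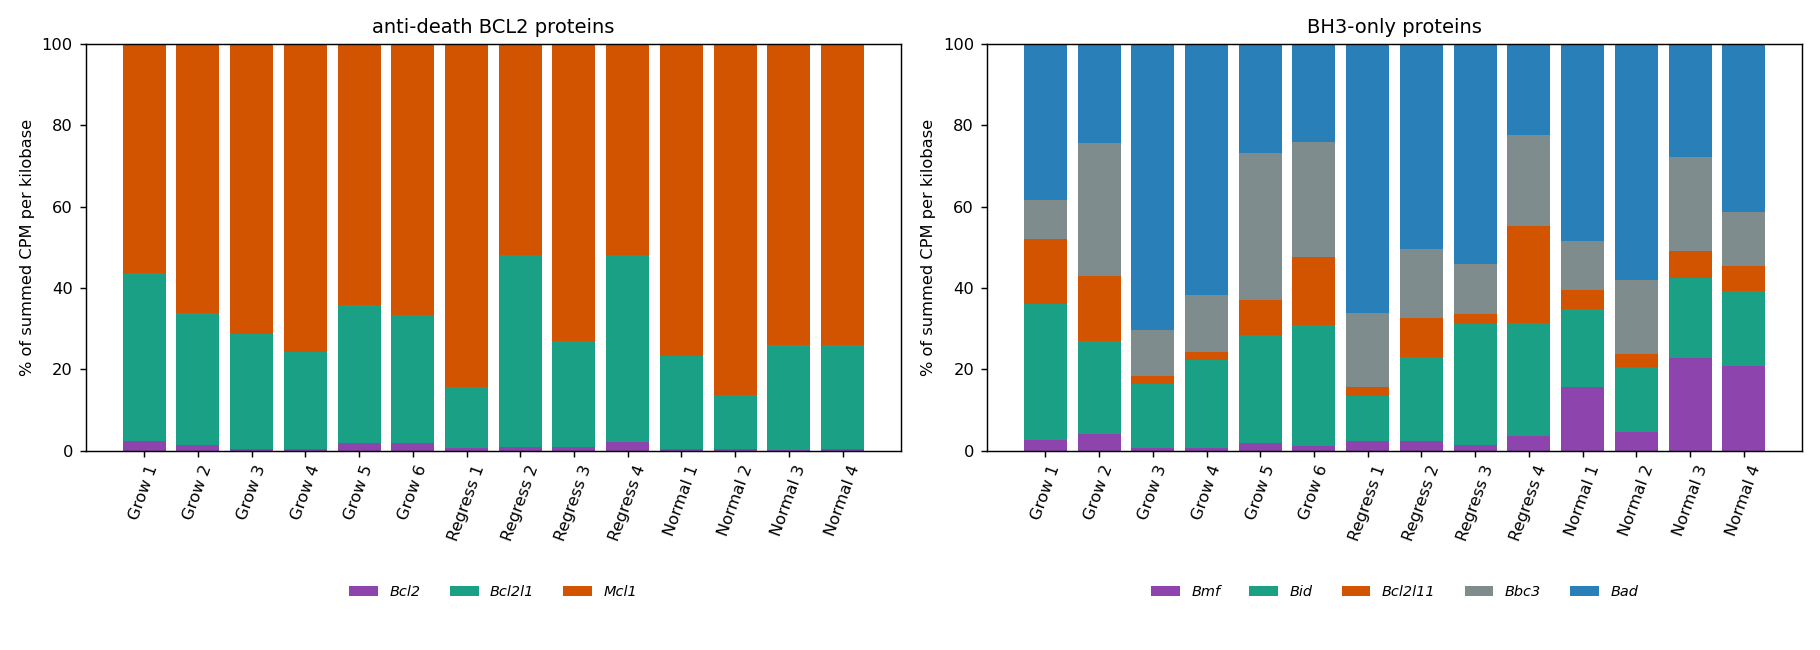
Share of each gene in the summed CPM per kilobase of the anti-death genes (left) and of the BH3-only genes (right), in percent, 1 bar per library. Bmf takes 0.564% to 4.07% of the BH3-only level in the 10 tumours and 4.61% to 22.8% in the 4 normal livers.

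Between the tumour classes, the comparison of Regress with Grow asks whether the family differs with the labelled fate of the tumour. No member was called by edgeR, and none had an unadjusted p under 0.05. Over all features edgeR also called 0% (1230 at an unadjusted p under 0.05, and 31 calls with DESeq2, none of them a member). That 0% rested on Regress 4: without it 1249 of 12520 features were called, none of them a member, against 0 without any other library. The largest differences were in Bmf, 3.81 ± 1.01 CPM in Regress and 2.15 ± 1.55 CPM in Grow (SD, n = 4 and 6; log2 fold change 0.83 ± 0.49 SE, adjusted p = 0.511), and in Bad, 26.3 ± 13.4 CPM in Regress and 15.3 ± 7.80 CPM in Grow (0.78 ± 0.45, adjusted p = 0.509). Both ranges overlapped. With 1 library left out in turn, the Bmf difference stayed between 0.66 and 1.20 and that of Bad between 0.49 and 1.08, and no member was called. With each library's length trend removed, Bmf stood at 1.18 and Bad at 0.45. With the replicate block they stood at 0.84 and 0.39.

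TMZ was tested over 5 tumours that received it, 3 of them Grow and also given SAHA, against 5 that did not, with the tumour class in the model. No member was called (0% of all features, with 1704 at an unadjusted p under 0.05), while 4 of 10 members had an unadjusted p under 0.05. Bcl2 stood at 4.64, 1.01, 1.41, 1.97 and 2.32 CPM with TMZ (Grow 2, 3 and 4, Regress 1 and 3) and at 9.89, 6.28, 8.12, 4.35 and 8.04 CPM without TMZ (Grow 1, 5 and 6, Regress 2 and 4). Grow 2 alone among the TMZ tumours reached the range of the others (log2 fold change -1.70 ± 0.40, adjusted p = 0.0974). DESeq2 called Bcl2 (-1.69, adjusted p = 0.00601) and 3.77% of all features. Bcl2l11 stood at 17.2, 2.52, 2.48, 2.36 and 4.64 CPM with TMZ and at 17.4, 11.4, 18.1, 11.3 and 24.8 CPM without, in the same order of tumours. Here too Grow 2 lay among the tumours without TMZ (-1.57 ± 0.55, adjusted p = 0.238). Without Grow 2 both passed, Bcl2 at -2.18 (adjusted p = 0.0108) and Bcl2l11 at -2.52 (adjusted p = 0.00733), in a fit that called 6.01% of features. Grow 2 was picked out after its values were seen. With 1 library left out in turn, Bcl2 ran from -2.18 to -1.47 (adjusted p from 0.0108 to 0.288). Bcl2l11 ran from -2.52 to -1.27 (adjusted p from 0.00733 to 0.492). Bcl2l1 (36.3 ± 10.1 CPM with TMZ and 61.9 ± 19.7 CPM without, -0.75 ± 0.29, adjusted p = 0.277) and Bad (25.6 ± 11.5 and 13.9 ± 8.10 CPM in that order, 0.87 ± 0.40, adjusted p = 0.353) overlapped and did not pass.

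The 4 tumours lowest in Bcl2, Grow 3, Grow 4, Regress 1 and Regress 3, were also the 4 lowest in Bcl2l11. These tumours were picked out after their values were seen, so this is a description of the libraries. Summed hepatocyte markers stood at 41500, 41600, 82900 and 177000 CPM in these 4 tumours and at 165000 to 239000 CPM in the other 6. Summed endothelial markers (8 of 8 genes tested) were lowest in the same 4 tumours, at 100, 95.2, 143 and 156 CPM, against 158 to 266 CPM in the other 6. In Normal they stood at 118 to 168 CPM. Summed macrophage and monocyte markers (12 of 12 genes tested) went the other way, at 749, 743, 694 and 1520 CPM in the 4 tumours and 217 to 728 CPM in the other 6. The part of these lists in the pattern was not tested. Libraries also differed in how expression followed transcript length: the slope of log2 CPM per doubling of length was 0.416, -0.143, -0.12, -0.36 and -0.478 in the tumours with TMZ and 0.15, 0.281, 0.169, -0.388 and 0.392 in those without. With each library's length trend removed, the TMZ log2 fold change was -1.45 for Bcl2 (adjusted p = 0.0938) and -1.43 for Bcl2l11 (adjusted p = 0.155).

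**Figure D4:**
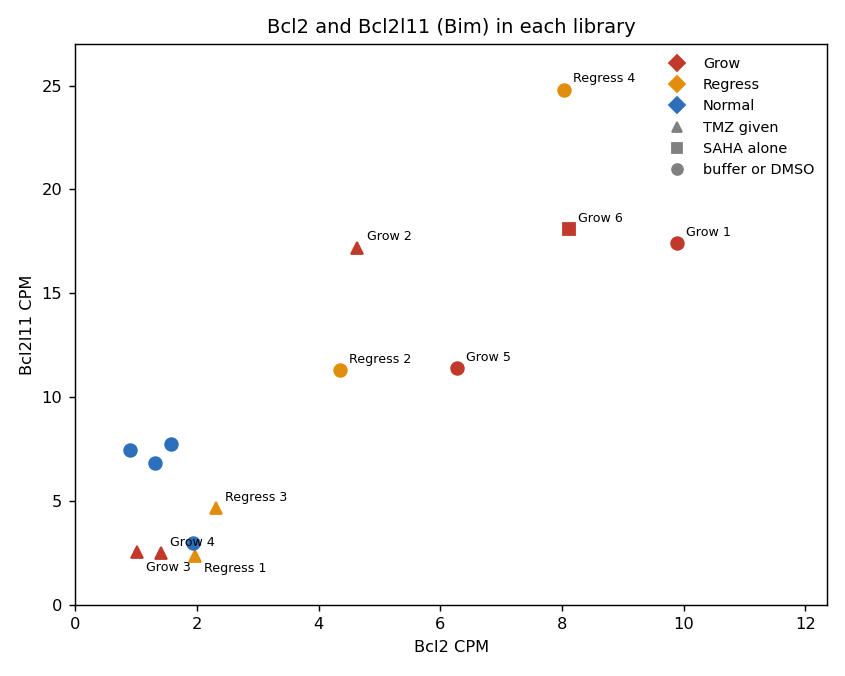
Bcl2 CPM against Bcl2l11 CPM in each library, coloured by group and shaped by treatment (linear axes from 0). Grow 3, Grow 4, Regress 1 and Regress 3 lie at 1.01 to 2.32 CPM of Bcl2 and 2.36 to 4.64 CPM of Bcl2l11, and the other 6 tumours, Grow 2 with TMZ among them, lie higher in both.

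SAHA was tested over 4 Grow tumours that received it, 3 of them with TMZ, against 2 that received DMSO. No member was called and none had an unadjusted p under 0.05 (0% of all features called, 325 at an unadjusted p under 0.05, and 52 calls with DESeq2, none of them a member). Bmf stood at 4.80, 0.757, 0.825 and 1.29 CPM in Grow 2, 3, 4 and 6 with SAHA and at 2.93 and 2.28 CPM in Grow 1 and 5 without it. The values with SAHA lay on both sides of those without (-0.46 ± 0.66, adjusted p = 1). With 1 library left out the difference ran from -1.46 without Grow 2 to -0.19 without Grow 3. Bcl2 stood at 4.64, 1.01, 1.41 and 8.12 CPM with SAHA and at 9.89 and 6.28 CPM without (-1.11 ± 0.71, adjusted p = 1, and -1.79 without Grow 6 to -0.71 without Grow 1). Grow 6, the tumour with SAHA alone, lay between the 2 tumours without it.

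Other genes of the death machinery were followed in 5 lists of 75 genes. Of 16 other BCL2 family genes 12 were tested, and 2 were called over both tumour groups, both higher. Over all tested features 2.32% were called in that comparison (1.59% higher), and 1.76% in Grow alone (1.12% higher). Bok, an effector relative that acts outside the control of the anti-death members, averaged 22.2 ± 3.81 CPM in Grow, 45.7 ± 20.8 CPM in Regress and 12.6 ± 3.71 CPM in Normal (1.34 ± 0.29 SE, adjusted p = 0.0328). Its lowest Regress value, 28.4 CPM, lay above its highest normal value, 16.3 CPM, while the lowest Grow value was 15.8 CPM. The highest Grow value, 25.9 CPM, also lay below it, and 0.374% of features lay wholly higher in Regress than in Grow. In that comparison Bok was not called (1.04 ± 0.28, adjusted p = 0.474). Of all features, 2.72% lay wholly above normal liver in Regress. Bcl2l14, which encodes BCL-G, averaged 2.34 ± 1.56 CPM in Grow and 5.50 ± 5.02 CPM in Regress and was listed at 0 in all 4 normal livers (adjusted p = 0.0290, and 0.0424 in Grow alone). Against a floor of 3 counts over the summed normal libraries, 0.12 CPM, the mean was at least 19.5-fold higher in Grow. Its Regress values ran from 0.394 to 12.1 CPM, and it did not pass in Regress alone (adjusted p = 0.051). Of 12 tested transcription factors known to act on BCL2 family genes, 1 was called, Jun, at 25.2 ± 7.52 CPM in Grow, 18.3 ± 11.2 CPM in Regress and 6.80 ± 2.44 CPM in Normal (1.66 ± 0.39, adjusted p = 0.0408, and 1.89 ± 0.41, adjusted p = 0.0384, in Grow alone). The calls of Bok, Bcl2l14 and Jun over both tumour groups were each lost without any 1 of the normal livers (adjusted p from 0.0639 to 0.152), and also without Grow 5, Grow 6 or Regress 3 for Bok, without Grow 6 for Bcl2l14 and without Grow 1, 4, 5 or 6 or Regress 2 or 4 for Jun (0.0512 to 0.0654). In Grow alone those of Bcl2l14 and Jun were lost without any 1 of the normal livers (0.0754 to 0.130), without Grow 1, 3, 5 or 6, and without Regress 3 for Bcl2l14 or Grow 4 for Jun (0.0509 to 0.0848). Without both libraries that share a code all 3 calls over both tumour groups (0.112 to 0.206) and both in Grow (0.0948 and 0.112) were lost, as they were with the replicate block (0.216 to 0.357). With Grow 3 and Grow 4 summed, that of Jun was lost over both tumour groups (0.0524) and those of Bcl2l14 and Jun in Grow (0.0548 and 0.0559). Over both tumour groups, Jun was also lost with no filter on low counts (0.0540), and Bok in tumours given buffer or DMSO only (0.0589).

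The other 3 lists had no call in any of the 6 comparisons made over all 14 libraries. Of all features, edgeR called 2.32% over both tumour groups, 1.76% in Grow and 0.0244% in Regress against Normal. In Regress against Grow, TMZ and SAHA it called 0%, so no list could hold a call there. Among 17 genes of the apoptosome, the caspases and their inhibitors, the smallest p over both tumour groups was that of Birc5 (survivin, an inhibitor also needed for mitosis), at 3.26 ± 1.48 CPM in Grow, 2.31 ± 2.41 CPM in Regress and 0.512 ± 0.259 CPM in Normal (2.36 ± 0.70, adjusted p = 0.0832). Among 10 tested genes of the death receptor pathway it was that of the TRAIL receptor Tnfrsf10b, at 5.01 ± 3.55, 5.51 ± 7.18 and 0.455 ± 0.371 CPM in the same order (3.46 ± 0.94, adjusted p = 0.0661). Among 18 binding partners and regulators of stability it was that of Pim3, a kinase that phosphorylates BAD, at 17.0 ± 5.70, 24.5 ± 16.4 and 45.6 ± 29.6 CPM (-1.16 ± 0.39, adjusted p = 0.119). In Grow, Birc5 (lowest value 1.24 CPM) and Tnfrsf10b (2.12 CPM) lay wholly above normal liver (highest value 0.873 CPM for each), as did 5.27% of all features. Pim3 in Grow and all 3 genes in Regress overlapped Normal. The median log2 fold change of the 5 lists, taken over tested genes, lay between -0.10 and 0.31, beside 0.01 over all features. Not tested for low counts were Bcl2l10, Pmaip1, Hrk, Bcl2l15, Fasl and Trp73, and Bcl2a1a, Bcl2a1b and Bcl2a1d are near-identical copies whose counts are uncertain.

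Bmf was also set beside every other named gene. Over the 14 libraries and 10708 genes (log2 CPM averaging 1 or more), the genes with the smallest root mean square difference from Bmf in centred log2 CPM were Cyp2u1 (0.69), Tspyl4 (0.69) and Tmem63a (0.76), where the median gene differed by 1.56. Cyp2u1 encodes a cytochrome P450. It averaged 4.06 ± 2.65 CPM in Grow, 5.67 ± 3.26 CPM in Regress and 16.1 ± 5.60 CPM in Normal. Tspyl4 averaged 1.41 ± 1.60, 2.25 ± 1.78 and 8.34 ± 4.05 CPM in the same order, and Tmem63a 5.50 ± 5.50, 7.05 ± 3.88 and 19.2 ± 12.1 CPM. None of these 3 genes passed over both tumour groups (adjusted p = 0.0532, 0.0619 and 0.102), whereas Bmf did.

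**Figure D5:**
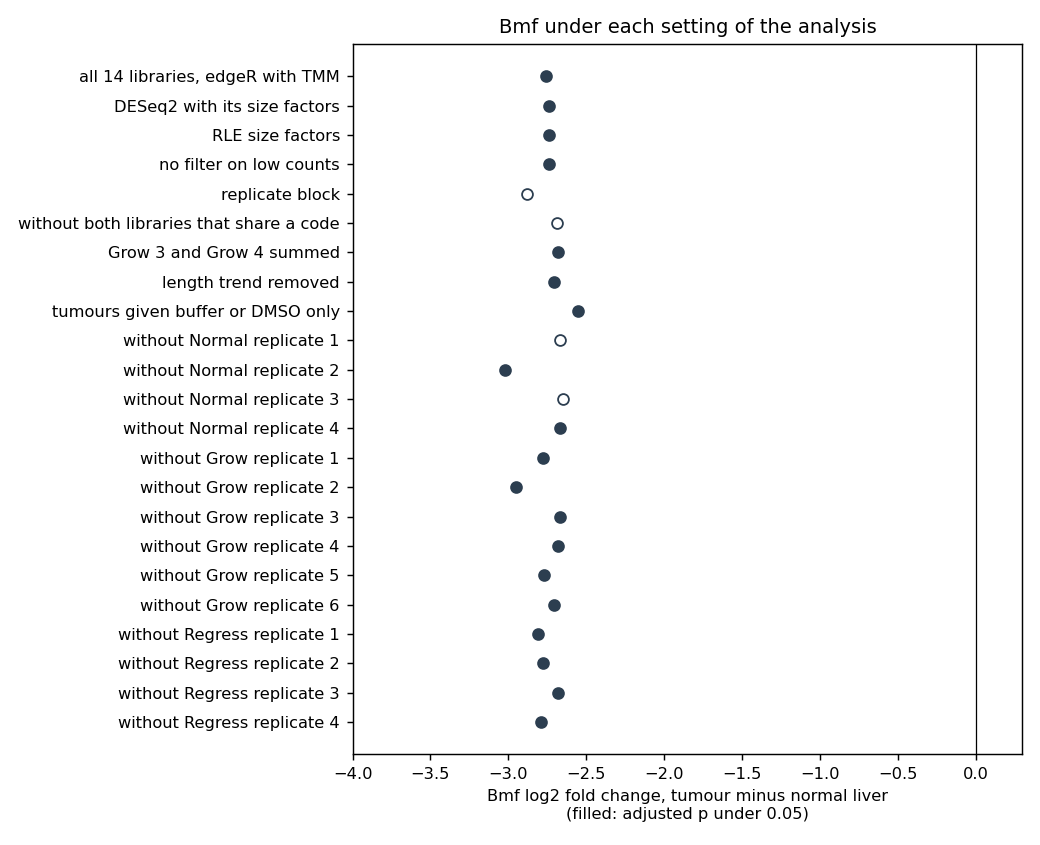
Log2 fold change of Bmf, tumour minus normal liver, under each setting of the analysis (rows), with filled marks for an adjusted p under 0.05. All estimates lie between -3.02 and -2.55, and 4 open marks stand for the replicate block, the fit without both libraries that share a code, and the fits without Normal 1 and without Normal 3.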

How the data were processed

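Snap-frozen tissue was extracted with a Qiagen RNeasy kit and sequenced from unstranded Illumina TruSeq v2 libraries, per the labels' protocols. The authors deposited estimated counts per RefSeq transcript for 14 samples, per the file headers, which are expected values and not whole numbers. Salmon 0.3.1, edgeR 3.14.0 and the build mm9 are named in the submitters' processing notes, and the annotation is not given in the sources used here. A column of the table with no values (1) was not used.

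Transcripts were matched to symbols through RefSeq GRCm38.p6 (26081 rows) or GENCODE M21 (144 rows); 9005 unmatched rows, 3.52% to 12.1% of a library, stayed as features of their own. Values of one symbol were added and rounded to whole numbers. Tests used the quasi-likelihood method of edgeR (version 4.0.16, with limma 3.58.1 in R 4.3.3) with robust dispersions, TMM and filterByExpr on all 14 libraries in one fit (biological coefficient of variation 0.484). Groups came from the titles and treatments from the labels. A tumour effect is the mean of Grow and Regress, TMZ a coefficient beside the group, and SAHA a contrast within Grow. Calls have a Benjamini-Hochberg adjusted p under 0.05 over all tested features. SE is the absolute log2 fold change over the square root of F. CPM uses TMM library sizes and log2 CPM a prior count of 2. Levels per kilobase use the length of the GENCODE M21 transcript matched to each RefSeq transcript. The code was tested on simulated counts. Alternatives were DESeq2 1.42.0, RLE size factors, no filter, a replicate block, removal of each library's trend on transcript length, summing Grow 3 and Grow 4, and leaving out libraries.

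The members and gene lists were chosen with earlier results of these data known. All members are named; of each other list, every gene called in a group comparison is, and otherwise the gene with the smallest p. Reads of overlapping genes cannot be told apart.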

Additional observations from a re-analysis of the deposited data

Results flagged for a closer look

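Of 30 sets of values, 10 genes in 3 groups, 4 held a library far from the others of its group. The rule used is set to flag about 1 in 20 sets of Gaussian values by chance. Its rate on CPM values such as these was not measured, and these sets share the same 14 libraries. In Grow, Bcl2l1 was highest in Grow 1 at 65.4 CPM, with the next tumour at 46.1 CPM. In Normal, Mcl1 was highest in Normal 2 at 174 CPM (next 137 CPM) and Bak1 in Normal 1 at 9.30 CPM (next 5.96 CPM). Bmf was lowest in Normal 2 at 7.88 CPM, with the next normal liver at 23.2 CPM, and without Normal 2 its log2 fold change over both tumour groups was -3.02.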

How the results depend on the processing

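The number of members called over both tumour groups (1) was 2 with DESeq2, 0 with the replicate block, 0 without both libraries that share a code, 3 in tumours given buffer or DMSO only, and 0 to 2 with 1 library left out. In Grow (1) it was 2 with DESeq2, 0 with the block, 0 without both libraries that share a code and 0 to 1 with 1 library left out. In Regress (0) it was 1 with DESeq2, 1 with the length trend removed and 0 to 2 with 1 library left out. For TMZ (0) it was 1 with DESeq2 and 0 to 2, and in tumours without drug (3) it was 1 without both libraries that share a code and 1 to 3 with 1 library left out, settings chosen after seeing the data. For Regress against Grow and SAHA it stayed 0. With RLE size factors, no filter on low counts, or Grow 3 and Grow 4 summed, no count of members moved. The cause of these moves was not tested.

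Some fold changes that did not pass changed sign. Over both tumour groups Bad was -0.08 without both libraries that share a code, -0.04 with Grow 3 and Grow 4 summed, -0.01 with the length trend removed, -0.39 in tumours given buffer or DMSO only and -0.18 to 0.38 with 1 library left out. With 1 library left out Mcl1 ran from -0.12 to 0.02 over both tumour groups, from -0.17 to 0.02 in Grow and from -0.14 to 0.03 in Regress, where it was 0.02 with the length trend removed. In Grow, Bax was -0.14 without both libraries that share a code, -0.02 with Grow 3 and Grow 4 summed and -0.16 to 0.34 with 1 library left out, and Bbc3 was -0.24 with the block. In Regress, Bcl2l11 (0.80) ran from -0.04, without Regress 4, to 1.12.

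Same-numbered samples of different groups deviated together with correlations from -0.52 to 0.20. Deviations from group means hold every difference between libraries, so these values cannot show whether the numbers mark a pairing. With the replicate block edgeR called 0 features over both tumour groups, against 285 without it (1312 at an unadjusted p under 0.05), and Bmf stood at -2.88 (adjusted p = 0.208), and at -3.30 (0.243) in Grow. The count of 285 was 1055 with DESeq2, 661 with the length trend removed, and 0 without both libraries that share a code (1493 at an unadjusted p under 0.05). In Grow the count of 217 was 1014 with DESeq2, 541 with the length trend removed and 18 without both libraries that share a code, and in Regress the count of 3 was 712, 153 and 0. With 1 library left out, 285 became 0 to 58 without a normal liver, 98 to 161 without Grow 1, 5 or 6 or Regress 3, and 991 without Regress 1. In Grow, 217 became 4 to 24 without a normal liver, 25 to 140 without Grow 1, 3, 4, 5 or 6, 593 without Regress 1 and 651 without Regress 4, and 113 with Grow 3 and Grow 4 summed. In Regress, 3 became 35 with RLE size factors, 0 with Grow 3 and Grow 4 summed, 667 without Regress 1, 13 without Regress 4 and 0 to 4 otherwise. For TMZ, 0 became 737 without Grow 2, 110 without Regress 3, 4 without Regress 1 and 78 with the length trend removed. For Regress against Grow, 0 became 1249 without Regress 4. Low counts of Bmf in tumours and of Bcl2 in normal livers limit the precision of both folds.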
